A study of Mus musculus with 4 samples.

Results

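The 10 genes described here handle adenosine in the mouse brain: 3 adenosine receptors (Adora1, Adora2a, Adora2b), 3 enzymes that break down nucleotides outside the cell (Entpd1, Entpd2, Nt5e), 2 transporters that carry adenosine across membranes (Slc29a1, Slc29a4) and 2 enzymes that act on adenosine or AMP inside the cell (Adk, Ampd2). They were chosen by gene name out of 39179 annotated genes, and each matched 1 row. All 10 reached a 4-library mean of 50 normalised counts, the level from which genes were compared. Members of the receptor family and of the enzyme families outside the 10 are given as lists further on.

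RNA came from the brain cortex of F1 mice (C57Bl6/J x Sv129) that were either BK deficient, that is without the calcium-activated potassium channel of large conductance (KO), or wildtype littermates (WT). Sleep-deprived animals (SD) were kept awake by gentle handling for 4 h from light onset, baseline animals (BL) were left alone for those hours, and all tissue was frozen at ZT4, so that the groups were WT BL, WT SD, KO BL and KO SD. The labels give neither the animals' age nor the deleted part of the gene. Each group was sequenced as 1 library from a pool of 4 animals. There was thus no replicate, the comparisons of single libraries have no test, and every 95% interval below covers counting error alone, not the differences between animals or libraries. A model over both genotypes is given after the sleep deprivation comparisons.

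Adenosine builds up outside brain cells as ATP is spent and released during waking, and it is one of the best studied signals of sleep pressure. ATP and ADP are cut to AMP by ectonucleotidases, and AMP is cut to adenosine by CD73. Adenosine then acts on the receptor made from Adora1, which dampens neurons through inhibitory G proteins, and on those made from Adora2a and Adora2b, which raise cyclic AMP. It is cleared by equilibrative transporters and by adenosine kinase, which turns it back into AMP inside the cell and is found mainly in astrocytes of the adult brain. Caffeine is a blocker of adenosine receptors.

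The libraries held 27.7 M to 42.0 M estimated reads, and 1 read was worth 0.878 to 1.25 normalised counts. Mitochondrial transcripts made up 12.7% to 13.5% of the signal in WT BL, WT SD and KO BL and 19.4% in KO SD. Kcnma1, the gene of the BK channel pore, stood at 614 and 177 normalised counts in WT BL and WT SD, and 447 and 491 in KO BL and KO SD. Its level therefore did not separate the genotypes, which are named as labelled. The waking-induced transcript Homer1 stood at 6421 and 9724 in WT BL and WT SD, and at 4051 and 15300 in KO BL and KO SD. The cortical projection neuron markers Slc17a7 and Tbr1 were read in all libraries at 4438 normalised counts or more.

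For 9 of the 10 genes a promoter window of 300 bases was found in RefSeq (build GRCm38.p6), running from 250 bases before a RefSeq start to 50 bases after it; Adora2a is named only. Where a gene had several windows, the one nearest to the deposited gene start was used. For Ampd2 that RefSeq start lies 1225 bases inside the deposited gene, so that its window is not at the deposited start, and for the other 8 genes it lies at the deposited start or up to 26 bases before it. The 4 windows printed here, 5′ to 3′ on the gene's own strand, belong to the members whose sleep deprivation difference had the same sign in both genotypes, with deposited and with corrected values, as set out further on. Capitals mark the letters of any motif searched, on either strand: GC box GGGCGG, AP-1 TGANTCA, the cyclic AMP response element (CRE) TGACGTCA, its half-site TGACG, and Egr GNGTGGGNG. The half-site lies within the full CRE, and overlapping matches were counted separately. The windows are Adora1 at chr1:134235408-134235707 (minus strand), Nt5e at chr9:88327359-88327658 (plus strand), Slc29a1 at chr17:45599569-45599868 (minus strand) and Ampd2 at chr3:108085377-108085676 (minus strand).
Adora1: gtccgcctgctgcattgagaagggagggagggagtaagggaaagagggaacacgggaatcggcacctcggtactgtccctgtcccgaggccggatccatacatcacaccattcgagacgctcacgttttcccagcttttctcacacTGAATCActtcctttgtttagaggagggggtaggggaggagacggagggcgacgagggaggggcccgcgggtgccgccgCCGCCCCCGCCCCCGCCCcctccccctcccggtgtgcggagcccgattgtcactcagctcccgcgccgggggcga
Nt5e: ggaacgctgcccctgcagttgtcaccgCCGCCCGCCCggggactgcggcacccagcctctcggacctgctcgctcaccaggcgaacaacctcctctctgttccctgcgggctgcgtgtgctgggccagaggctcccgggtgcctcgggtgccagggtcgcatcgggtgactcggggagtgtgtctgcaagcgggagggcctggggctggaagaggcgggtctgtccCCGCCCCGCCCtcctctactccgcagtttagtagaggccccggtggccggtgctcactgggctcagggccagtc
Slc29a1: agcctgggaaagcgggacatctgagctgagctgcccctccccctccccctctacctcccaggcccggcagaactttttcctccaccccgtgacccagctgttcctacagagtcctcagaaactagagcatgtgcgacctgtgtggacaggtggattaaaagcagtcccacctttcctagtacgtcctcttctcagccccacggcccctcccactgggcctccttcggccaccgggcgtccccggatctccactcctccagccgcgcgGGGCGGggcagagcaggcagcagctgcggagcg
Ampd2: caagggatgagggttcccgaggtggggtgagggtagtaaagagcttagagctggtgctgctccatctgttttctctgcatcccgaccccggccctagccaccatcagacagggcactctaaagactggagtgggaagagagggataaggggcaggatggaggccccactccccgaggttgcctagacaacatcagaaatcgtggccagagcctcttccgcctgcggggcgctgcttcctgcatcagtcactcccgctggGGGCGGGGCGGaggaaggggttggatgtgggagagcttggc

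All 9 windows were rich in GC, from 61.7% (Adk and Ampd2) to 71.0% (Nt5e), against a median of 52.7% over 32851 promoter windows. A GC box was found in 8 of the 9, with 9 matches in Slc29a4, 6 in Adora2b, 4 each in Adk and Nt5e, 3 each in Adora1 and Entpd2, 2 in Ampd2 and 1 in Slc29a1, and none in Entpd1. The same letters occurred in 35.7% of all windows. An AP-1 motif stood in the windows of Adora1 and Entpd2, a motif held by 7.81% of all windows. A CRE half-site stood in those of Adk and Entpd1 (20.8% of all windows), and an Egr motif in that of Slc29a4 (14.3%). The full CRE, held by 1.79% of all windows, was in none of the 9. These matches describe letters in a window and nothing about binding.

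The A1 receptor gene Adora1 (ENSMUSG00000042429, mm10 chromosome 1, 134199223 to 134235431, minus strand) had by far the highest level of the 3 receptors. It stood at 8914 normalised counts (95% Poisson interval 8717 to 9115) and 13870 (13627 to 14115) in WT BL and WT SD, and 10100 (9881 to 10323) and 10610 (10422 to 10801) in KO BL and KO SD. WT SD was the high library, and the other 3 lay close together. On the log2 scale the difference of WT SD over WT BL was 0.64 (counting interval 0.60 to 0.68), and that of KO SD over KO BL was 0.07 (0.03 to 0.11). KO BL was 0.18 higher than WT BL, and KO SD was at -0.39 relative to WT SD. The gene shares 1162 of its 5785 exonic bases with Mybph on the opposite strand, which was listed at 2.29 to 7.78 normalised counts, and the sources used here do not say whether counting used strand.

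The receptor gene Adora2a (ENSMUSG00000020178, chromosome 10, 75316943 to 75334788, plus strand) is known for its high expression in striatal neurons that also carry the dopamine receptor Drd2. It was the lowest member, at 41.3 normalised counts (28.9 to 57.2) and 66.7 (50.9 to 85.8) in WT BL and WT SD, and 98.9 (78.3 to 123) and 54.2 (41.7 to 69.7) in KO BL and KO SD, from only 36, 60, 79 and 62 estimated reads. KO BL was the high library and WT BL the low one. The log2 difference was 0.68 for WT SD over WT BL (0.07 to 1.33) and -0.86 for KO SD over KO BL (-1.37 to -0.36), opposite in sign. KO BL over WT BL gave 1.24 (0.67 to 1.87), the largest difference of any member in the 4 comparisons, and KO SD over WT SD gave -0.29 (-0.83 to 0.24).

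The receptor gene Adora2b (ENSMUSG00000018500, chromosome 11, 62248984 to 62266453, plus strand) codes for the receptor with the lowest affinity for adenosine. Its values were 180 and 175 normalised counts in WT BL and WT SD, and 127 and 159 in KO BL and KO SD, the narrowest span of the 10, with a ratio of 1.42 between the highest and lowest library. KO BL was low, at -0.50 relative to WT BL (-0.89 to -0.14). The other 3 differences had counting intervals that included 0, from -0.14 (KO SD over WT SD) to 0.32 (KO SD over KO BL).

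**Figure D1:**
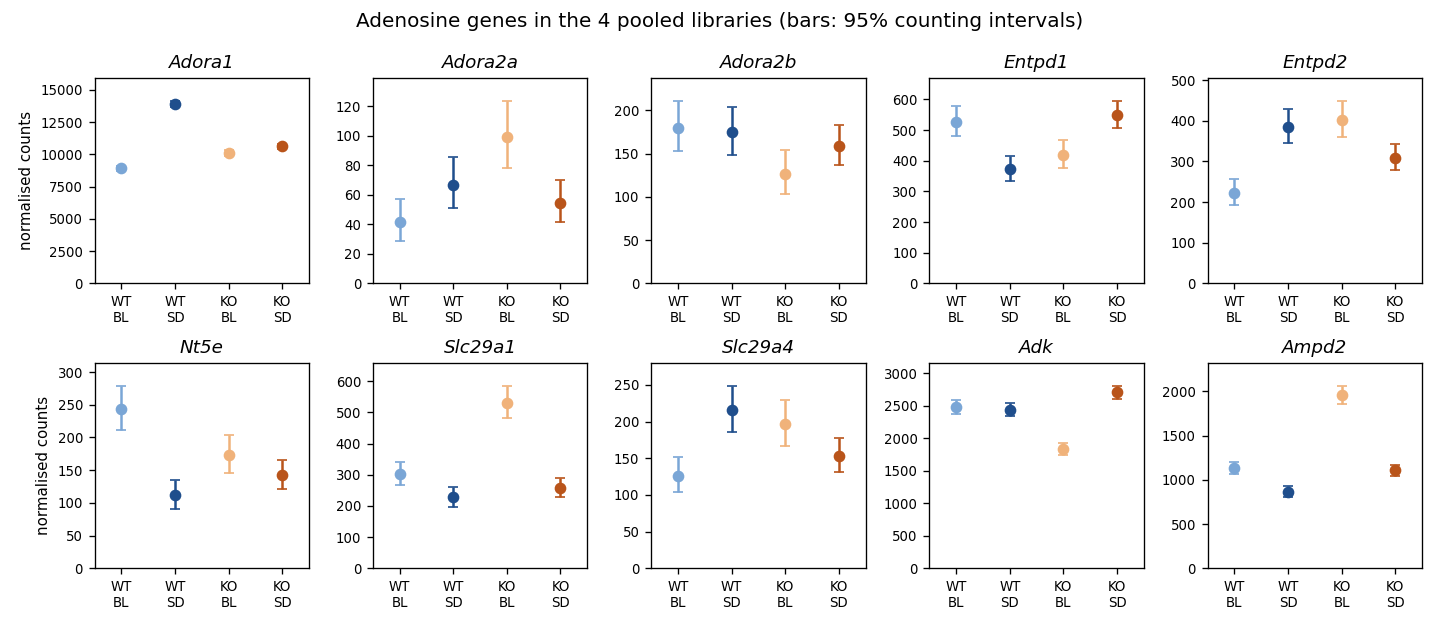
Deposited normalised counts of the 10 adenosine genes (vertical axis, from 0, its own range for each gene) in the 4 pooled libraries (horizontal axis), with bars for the 95% Poisson interval of the estimated reads. Adora1 is highest in WT SD (13870), Nt5e is highest in WT BL (243), and Slc29a1, Ampd2 and Adora2a are highest in KO BL (531, 1960 and 98.9).

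Among the ectonucleotidases, Nt5e (CD73, ENSMUSG00000032420, chromosome 9, 88327609 to 88372089, plus strand) makes adenosine from AMP. It stood at 243 normalised counts (212 to 278) and 112 (90.4 to 135) in WT BL and WT SD, and 173 (145 to 204) and 142 (121 to 166) in KO BL and KO SD. Both sleep-deprived pools were below both baseline pools. The log2 difference was -1.12 in wildtype (-1.49 to -0.78), the largest of any member for sleep deprivation, and -0.28 in knockout (-0.62 to 0.06). In the authors' deposited table, made from the same single libraries, Nt5e had the lowest adjusted p of any member in any comparison, 0.435 for WT BL over WT SD.

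Entpd1 (CD39, ENSMUSG00000048120, chromosome 19, 40612366 to 40741602, plus strand), which cuts ATP and ADP to AMP and is known as a microglial and vascular enzyme, was at 526 and 374 in WT BL and WT SD, and 420 and 549 in KO BL and KO SD. The highest and the lowest value were those of the sleep-deprived pools. Sleep deprivation went with a log2 difference of -0.49 in wildtype (-0.70 to -0.29) and 0.39 in knockout (0.20 to 0.59). KO SD over WT SD was 0.55 (0.36 to 0.75), the largest difference between the sleep-deprived pools for any member.

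Entpd2 (ENSMUSG00000015085, chromosome 2, 25395874 to 25401321, plus strand), an enzyme that prefers ATP, was at 223 and 386 in WT BL and WT SD, and 402 and 310 in KO BL and KO SD. WT BL was the low library. Its differences on the log2 scale were 0.79 for WT SD over WT BL (0.53 to 1.05), -0.38 for KO SD over KO BL (-0.60 to -0.15) and 0.85 for KO BL over WT BL (0.59 to 1.12). The gene shares 612 of its 2128 exonic bases with Npdc1 on the same strand, and Npdc1 was far higher, at 3324, 5957, 6013 and 3649 in WT BL, WT SD, KO BL and KO SD. Its log2 differences in the same 3 comparisons were 0.84, -0.72 and 0.86. Reads of the shared bases could belong to either gene, so the Entpd2 values are uncertain.

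Of the equilibrative transporters, Slc29a1 (ENT1, ENSMUSG00000023942, chromosome 17, 45585200 to 45599606, minus strand) is the main carrier of adenosine across the cell membrane. It stood at 302 normalised counts (267 to 341) and 228 (198 to 261) in WT BL and WT SD, and 531 (482 to 584) and 259 (230 to 290) in KO BL and KO SD. KO BL stood apart from the other 3, and each sleep-deprived pool was below its own baseline. Sleep deprivation differed from baseline by -0.41 on the log2 scale in wildtype (-0.68 to -0.14) and -1.03 in knockout (-1.26 to -0.82). KO BL was 0.81 above WT BL (0.59 to 1.04), and KO SD over WT SD was 0.18 (-0.08 to 0.45). The gene shares 275 exonic bases with Gm17080, which was listed at 0 in all libraries.

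Slc29a4 (PMAT, ENSMUSG00000050822, chromosome 5, 142702101 to 142722490, plus strand) carries monoamines and, in acidic surroundings, adenosine. It was at 126 and 215 in WT BL and WT SD, and 197 and 153 in KO BL and KO SD, again with WT BL as the low library. Its log2 differences were 0.77 in wildtype (0.43 to 1.12), -0.36 in knockout (-0.68 to -0.04), 0.64 for KO BL over WT BL (0.28 to 1.0) and -0.49 for KO SD over WT SD (-0.80 to -0.19).

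Inside the cell, Adk (adenosine kinase, ENSMUSG00000039197, chromosome 14, 21052574 to 21448568, plus strand) stood at 2482 normalised counts (2378 to 2589) and 2439 (2338 to 2543) in WT BL and WT SD, and 1834 (1741 to 1931) and 2703 (2608 to 2800) in KO BL and KO SD. The wildtype libraries had overlapping counting intervals, and KO BL was low. The log2 difference was -0.03 in wildtype (-0.11 to 0.06) and 0.56 in knockout (0.47 to 0.65), just under the 1.5-fold used here to count a gene as higher or lower, which is 0.585 on the log2 scale. With TMM factors it was 0.61, past that fold. KO BL over WT BL was -0.44 (-0.53 to -0.34).

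Ampd2 (ENSMUSG00000027889, chromosome 3, 108074062 to 108086651, minus strand), an AMP deaminase that draws AMP away to IMP, was at 1132 (1062 to 1205) and 866 (806 to 928) in WT BL and WT SD, and 1960 (1863 to 2059) and 1107 (1047 to 1170) in KO BL and KO SD. The order of libraries was that of Slc29a1, with overlapping counting intervals for WT BL and KO SD. On the log2 scale the differences were -0.39 in wildtype (-0.52 to -0.25), -0.82 in knockout (-0.93 to -0.72), 0.79 for KO BL over WT BL (0.68 to 0.91) and 0.35 for KO SD over WT SD (0.23 to 0.49). It shares 434 exonic bases with Gm12500, which was at 16.3 to 19.3 normalised counts.

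Levels of different genes were compared per kb of deposited transcript width. Averaged over the libraries, Adora1 led with 2128 normalised counts per kb, ahead of Adk (1328), Ampd2 (777), Entpd1 (441), Slc29a1 (295), Entpd2 (235), Adora2b (86.8), Slc29a4 (61.9), Nt5e (46.8) and Adora2a (25.8). The ranges over the 4 libraries did not overlap between Adora1 (1744 to 2714) and Adk (1030 to 1518), between Ampd2 (532 to 1203) and Entpd1 (353 to 518), or between Entpd2 (158 to 286) and Adora2b (68.8 to 97.7). The other neighbours in this order overlapped. Per kb, the A1 receptor was above both other receptors in each library, with the largest ratio to Adora2a in WT BL (1744 against 16.3).

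By the 1.5-fold rule 4 members were higher in WT SD than in WT BL (Adora1, Adora2a, Slc29a4 and Entpd2) and Nt5e was lower. Scaled to equal library totals, which lowered the median of all genes from -0.04 to -0.20, 2 were higher (Slc29a4, 0.60, and Entpd2, 0.62) and 2 lower (Nt5e, -1.28, and Entpd1, -0.66). With equal totals 2663 of all 13550 genes were higher and 4255 lower. With deposited values 24.5% of all 13550 genes were higher and 24.1% lower, so that passing the fold was common among genes at large. The median of the 10 members was -0.03 and that of all genes was -0.04. Adora1 lay at percentile 77.2 of all genes compared, and with equal totals it was at 0.47 and Adora2a at 0.51, both under the threshold. After the correction for GC content and length described below, Nt5e was at -0.57 and also under it. In the same comparison 6 of 8 leptomeningeal markers were lower with deposited values (median -1.14), and 5 after the correction (median -1.05).

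In knockout cortex no member was 1.5-fold higher in KO SD than in KO BL, and Adora2a, Slc29a1 and Ampd2 were lower, against 16.2% of all genes higher and 16.4% lower. The median of the members was -0.32 and that of all genes was -0.04. The 2 sleep deprivation comparisons share no library. With deposited values 4 of the 10 members had the same sign in both: Adora1 was above 0, and Nt5e, Slc29a1 and Ampd2 below it. Over all genes compared, 48.1% had the same sign. Scaled to equal totals, Adora1 was at -0.017 in knockout, so that its signs were opposite. An additive model of genotype and sleep deprivation over the 4 libraries (limma, 1 residual degree of freedom), added after the values were seen, gave no member at an adjusted p under 0.05 (Benjamini-Hochberg over all genes compared), where 0.753% of all genes passed. The largest effects averaged over genotypes were -0.72 for Slc29a1 (2 of 2 pairs lower), -0.70 for Nt5e and -0.61 for Ampd2, and each member's adjusted p was 0.9998. With corrected values the effects of Slc29a1 (-0.82) and Adora1 (0.72) had adjusted p of 0.393 and 0.403 in limma, no member passed, and 0.0221% of all genes did. At an unadjusted p under 0.05 in limma no member passed with deposited values and 2 passed with corrected values. Of all 13550 genes, 830 passed with deposited values and 1581 with corrected values, so that passing was common with corrected values.

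**Figure D2:**
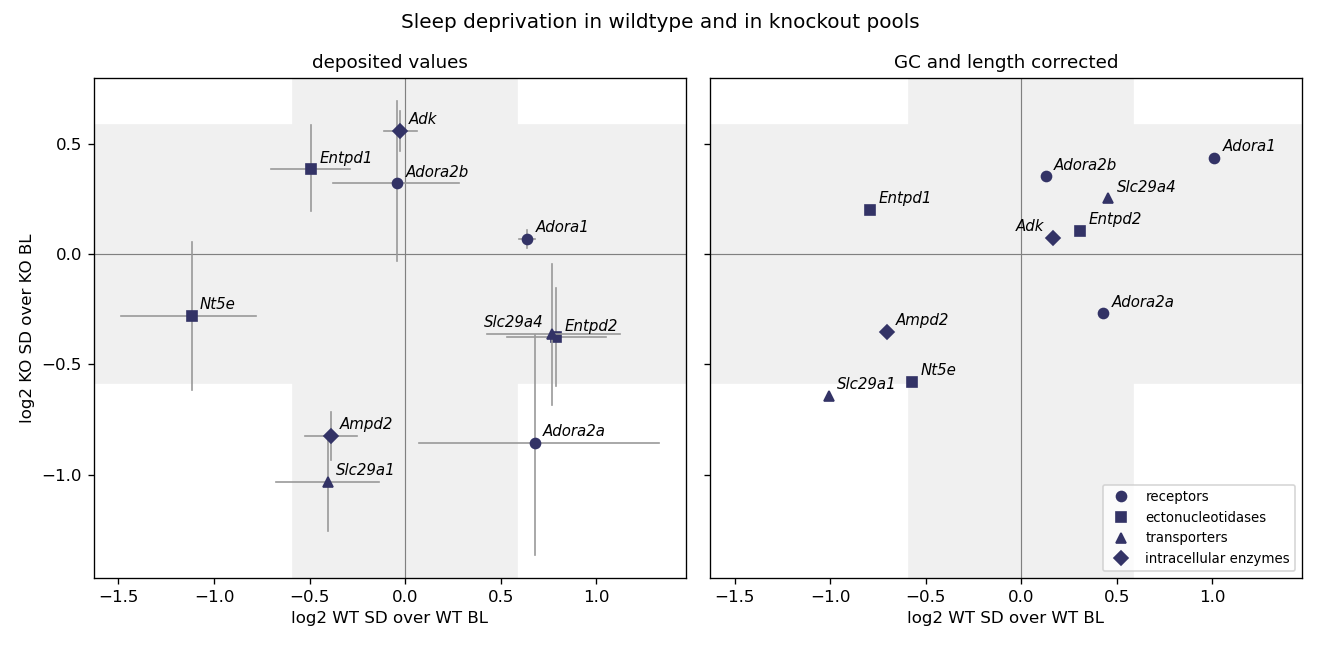
Log2 difference of sleep deprivation in wildtype pools (horizontal axis) and knockout pools (vertical axis) for each member, with deposited values on the left, where lines are 95% counting intervals, and values corrected for GC content and length on the right. The grey bands hold differences under 1.5-fold; Adora1 stands to the right of 0 in both panels (0.64 and 1.01), and Slc29a1, Ampd2 and Nt5e stand in the lower left corner of both.

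The genotypes were compared at baseline and after sleep deprivation. At baseline, Adora2a, Slc29a1, Slc29a4, Entpd2 and Ampd2 were at least 1.5-fold higher in KO BL than in WT BL and no member was lower, where 16.4% of all genes were higher and 10.7% lower. The median of the members was 0.41 and that of all genes was -0.01. Between the sleep-deprived pools no member passed 1.5-fold in either direction, while 19.8% of all genes were higher in KO SD and 21.1% lower. Slc29a1 and Ampd2 were above 0 in both genotype comparisons, which share no library, by averages of 0.50 and 0.57, and Adora2b was below 0 in both (but at 0.03 between the sleep-deprived pools with equal totals without mitochondrial genes).

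**Figure D3:**
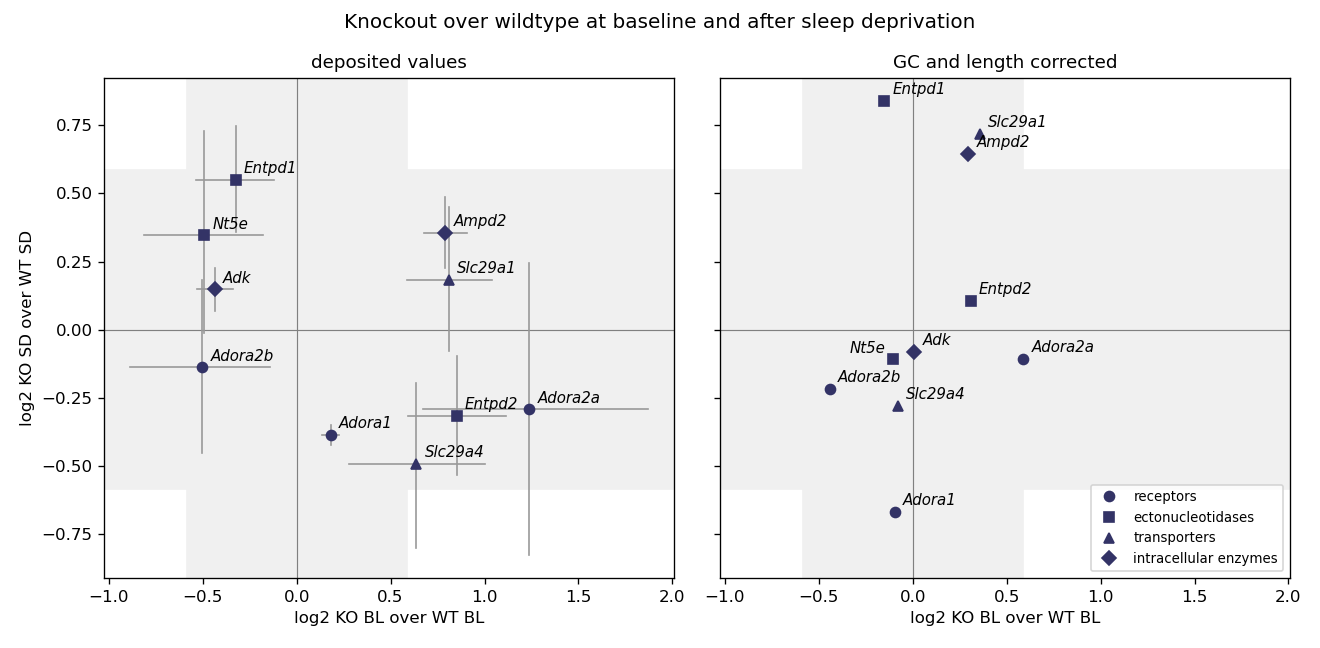
Log2 difference of knockout over wildtype at baseline (horizontal axis) and after sleep deprivation (vertical axis) for each member, drawn as in the plot of sleep deprivation. With deposited values on the left, 5 members lie right of the grey band at baseline and none lies outside it after sleep deprivation. With corrected values on the right, only Adora2a passes the band at baseline, and barely (0.588 against an edge of 0.585).

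The differences followed the base composition and the length of the transcripts. Over the 13550 genes compared, the rank correlation of the log2 difference with transcript GC content was 0.33 for WT SD over WT BL, -0.71 for KO SD over KO BL, 0.80 for KO BL over WT BL and -0.38 for KO SD over WT SD. With transcript width it was -0.49, 0.06, -0.22 and 0.51, larger in size than with GC content for WT SD over WT BL and for KO SD over WT SD. Over the 10 members, whose GC content ran from 44.1% (Adk) to 60.1% (Slc29a4), the correlation with GC content was 0.66, -0.72, 0.78 and -0.55, and that with width 0.22, 0.10, -0.25 and -0.55. The genes share the same 4 libraries, so these correlations are descriptions. With both trends removed, the correlation with GC content over the members was 0.39, 0.05, 0.56 and -0.13.

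**Figure D4:**
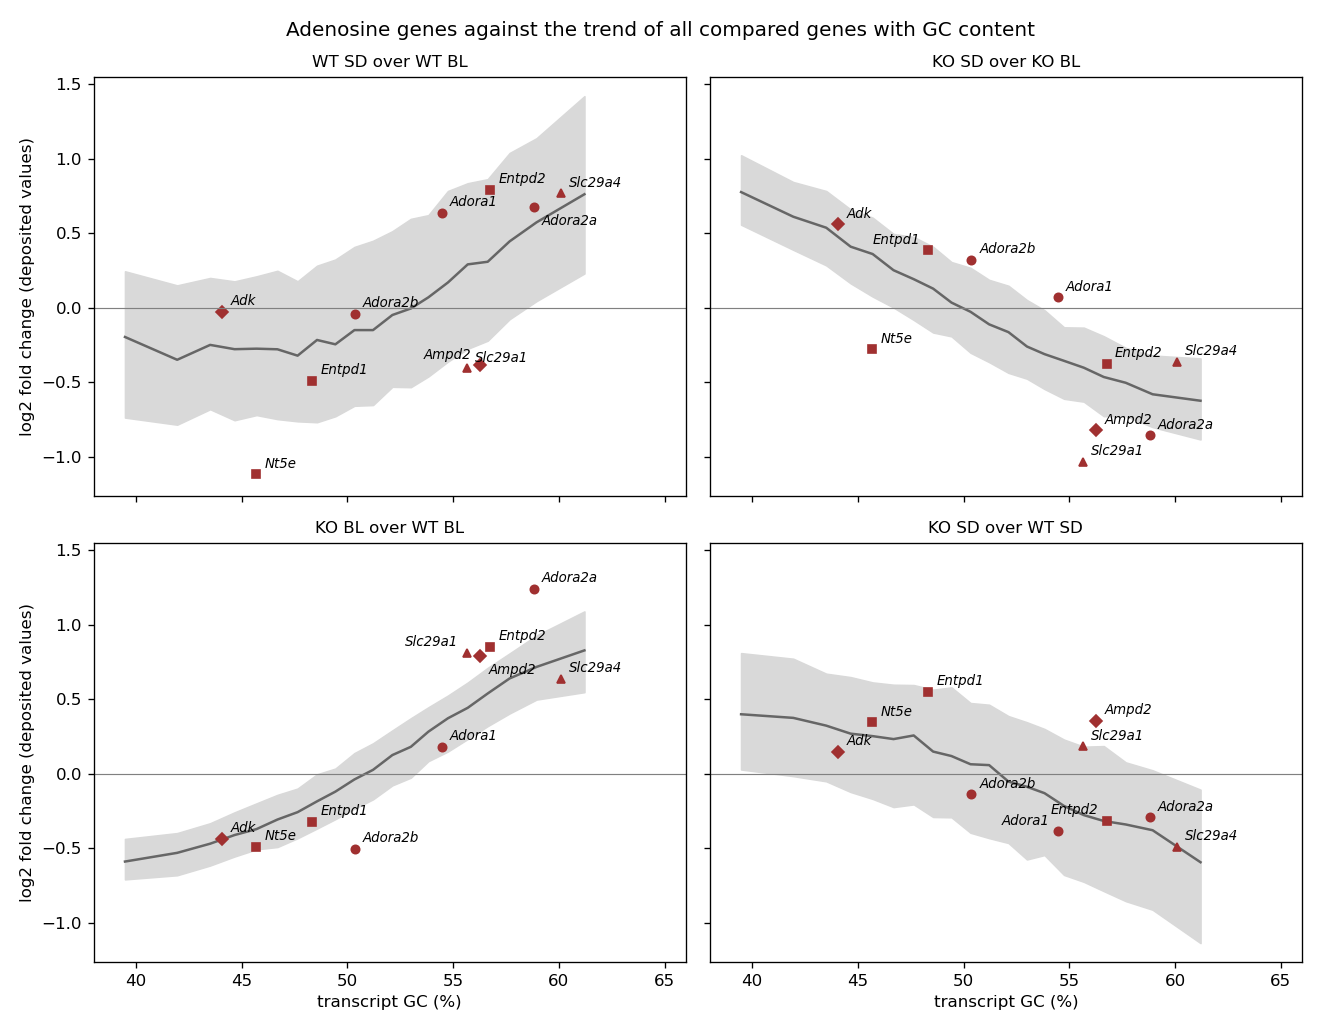
Log2 difference of deposited values (vertical axis) against transcript GC content in percent (horizontal axis) in the 4 comparisons, with the members as points, marked by role as in the plots of differences, and the median and middle range (25th to 75th percentile) of all compared genes in 20 GC bins as line and band. Entpd2 and Slc29a4 lie within the band for sleep deprivation in both genotypes, while Nt5e lies below it in both.

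Corrected values removed most of the calls and added others. In wildtype, Adora1 was higher after sleep deprivation (1.01), and Slc29a1 (-1.01), Entpd1 (-0.79) and Ampd2 (-0.70) were lower, where 18.5% of all genes were higher and 18.2% lower. Nt5e went from -1.12 to -0.57, and Adora2a, Slc29a4 and Entpd2 to 0.43, 0.45 and 0.31, all under 1.5-fold. In knockout only Slc29a1 remained past it (-0.64), against 7.79% of all genes higher and 5.34% lower, with Nt5e at -0.58, Adora1 at 0.44 and Ampd2 at -0.35. At baseline only Adora2a was higher in the knockout, against 3.19% of all genes higher and 3.48% lower. Its difference of 0.588 was barely past the threshold of 0.585, from 36 and 79 estimated reads in WT BL and KO BL. Between the sleep-deprived pools Entpd1 (0.84), Slc29a1 (0.72) and Ampd2 (0.65) were higher in KO SD and Adora1 lower (-0.67), against 14.5% and 12.7%.

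After the correction 8 of the 10 members had the same sign of sleep deprivation difference in both genotypes, the exceptions being Adora2a and Entpd1, where 61.8% of all genes had the same sign. Adora1, Nt5e, Slc29a1 and Ampd2 had the same sign under both sets of values. For Adora1 the knockout response minus the wildtype response was -0.57 with both sets of values, -0.49 with equal library totals and -0.37 with equal totals without mitochondrial genes. For Nt5e the difference of responses was 0.84 with deposited values and -0.01 after the correction. For Slc29a1 it went from -0.63 to 0.36 and for Ampd2 from -0.44 to 0.35.

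The rest of adenosine and purine metabolism was described by a list of 42 genes besides the 10, of which 31 reached the mean for comparison. Relative to WT BL, 3 stood 1.5-fold or more higher in WT SD and 12 lower, where 24.5% and 24.1% of all genes were, and the median was -0.20. The 2 highest were Nt5c, a nucleotidase of the cytosol (2094 against 542 normalised counts, log2 1.95), and Aprt, which salvages adenine (909 against 272, log2 1.74). The 2 lowest were Entpd7, a nucleotidase of inner membranes (-1.48), and Enpp1, an ectoenzyme that cuts ATP (-1.20). After the correction 2 were higher and 7 lower, against 18.5% and 18.2% of all genes.

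In KO SD, 1 gene of the same list was higher than in KO BL, the purine salvage enzyme Hprt (0.77), and 7 were lower, most of all Ak1 (-0.88), which interconverts adenine nucleotides, and Alpl (-0.86), a phosphatase that also cuts AMP. Of all genes, 16.2% were higher and 16.4% lower there. None of the list passed 1.5-fold after the correction, against 7.79% of all genes higher and 5.34% lower. Between genotypes at baseline 2 were higher (Aprt, 1.07, and the transporter Slc29a2, 0.72) and 2 lower (Enpp1, -0.83, and the phosphorylase Pnp, -0.68), again none after the correction. Between the sleep-deprived pools 7 were higher, led by the deaminase-like Adal (1.15) and by Ahcyl2 (1.02), a relative of the enzyme that splits adenosylhomocysteine, and 3 lower, led by Nt5c (-1.51) and Aprt (-1.37). There the corrected counts were 6 and 0. Of all genes, 19.8% were higher and 21.1% lower between these pools, and 14.5% and 12.7% after the correction. At baseline 16.4% of all genes were higher and 10.7% lower, and 3.19% and 3.48% after the correction. The A3 receptor Adora3 (40.9, 41.0, 38.8 and 55.9 normalised counts in WT BL, WT SD, KO BL and KO SD) and adenosine deaminase Ada (13.8, 12.2, 12.5 and 7.90) were below the mean for comparison.

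Of 19 genes that release ATP or sense it through P2 receptors, 11 were compared. In WT SD the receptor P2ry6 (1.05) and the pannexin Panx2 (1.04) were the highest of 3 higher genes, and the microglial receptors P2ry13 (-1.23) and P2rx7 (-0.94) were lower, with a median of 0.42. In KO SD 3 were higher than in KO BL, led by the astrocyte connexin Gja1 and the microglial receptor P2ry12 (both 0.92), and none was lower. At baseline Panx2 (1.03) and P2rx6 (0.73) were higher in the knockout and P2ry12 lower (-0.64). Between the sleep-deprived pools P2ry13 (1.04) and P2rx7 (0.93) were higher in KO SD and none was lower. In the order of these comparisons, 24.5%, 16.2%, 16.4% and 19.8% of all genes were higher, and 24.1%, 16.4%, 10.7% and 21.1% lower. With corrected values, 3 passed upward and 2 downward for WT SD over WT BL, where 18.5% and 18.2% of all genes did. For KO SD over KO BL 1 passed upward (7.79% of all genes, and 5.34% downward), and none at baseline (3.19% and 3.48%). For KO SD over WT SD 2 passed upward (14.5% of all genes, and 12.7% downward).

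The signal partners of adenosine receptors (G proteins, adenylyl cyclases, phosphodiesterases, kinases and channels) were found for 31 of 32 symbols, and Pde4d had 2 identifiers. In WT SD none of the 32 rows was higher and 13 were lower, with a median of -0.38, where 24.5% of all genes were higher and 24.1% lower. After the correction none was higher and 8 were lower, against 18.5% and 18.2% of all genes. The lowest were the cyclase Adcy9, at 82.2 normalised counts against 843 in WT BL (-3.34), and Kcnj6, a potassium channel subunit that A1 receptors can open (51.1 against 361.5, -2.80). In KO SD 3 were higher than in KO BL, led by the inhibitory G protein Gnai3 (1.10) and the transcription factor Creb1 (0.90), and 7 lower, led by Adcy9 (-0.99) and the phosphodiesterase Pde1b (-0.85), with 0 and 1 after the correction. At baseline 5 were higher in the knockout, led by the phosphodiesterase Pde4a (0.87) and the receptor kinase Adrbk1 (0.72), and 6 lower, led by the G protein regulator Rgs4 (-0.84) and Creb1 (-0.82), with none after the correction. Between the sleep-deprived pools 10 were higher in KO SD, led by Adcy9 (2.65) and 1 of the Pde4d identifiers (2.39), and Ppp1r1b was lower (-0.71), where 19.8% of all genes were higher and 21.1% lower. The second Pde4d identifier was at -0.50. After the correction 8 were higher, and 1 was lower, the second Pde4d identifier (-0.86), with Ppp1r1b at -0.11. Of all genes, 14.5% were then higher and 12.7% lower. For KO SD over KO BL the shares of all genes were 16.2% and 16.4%, and 7.79% and 5.34% after the correction. For KO BL over WT BL they were 16.4% and 10.7%, and 3.19% and 3.48% after it.

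Markers of cell types that are known to carry these genes were read beside them, since in bulk RNA fewer cells of a type and less RNA per cell cannot be told apart. Nt5e is known from the meninges as well as from neurons and glia. Of 8 leptomeningeal markers 6 were lower and 1 higher in WT SD than in WT BL (median -1.14). In KO SD 6 were lower and none higher than in KO BL (-1.18). Of all genes, 24.1% were lower and 24.5% higher in the wildtype pair, and 16.4% and 16.2% in the knockout pair. Slc47a1 stood at 690, 113, 495.5 and 116 in WT BL, WT SD, KO BL and KO SD, and Igf2 at 5146, 1420, 4014 and 1688. The summed markers, most of them Ptgds, were 53068, 71200, 63822 and 26574, and none was at 0. The part of meningeal tissue in the Nt5e values was not tested.

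Adora2a was read beside 8 markers of striatal projection neurons. Their sums ran from 8128 (KO SD) to 9900 (WT SD) and did not follow Adora2a, but 3 genes had their highest value in KO BL as it did. These were Rgs9 (91.9, 109, 241 and 125.5 normalised counts in WT BL, WT SD, KO BL and KO SD), Gpr6 (40.2, 22.2, 66.4 and 21.9) and Drd2, the marker of the neurons known for Adora2a (5.74, 0, 33.8 and 7.90). Of the 6 markers compared, 2 were higher and 1 lower in KO BL than in WT BL. Among all genes, 16.4% were higher and 10.7% lower there. The part of striatal tissue in the Adora2a values was not tested.

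**Figure D5:**
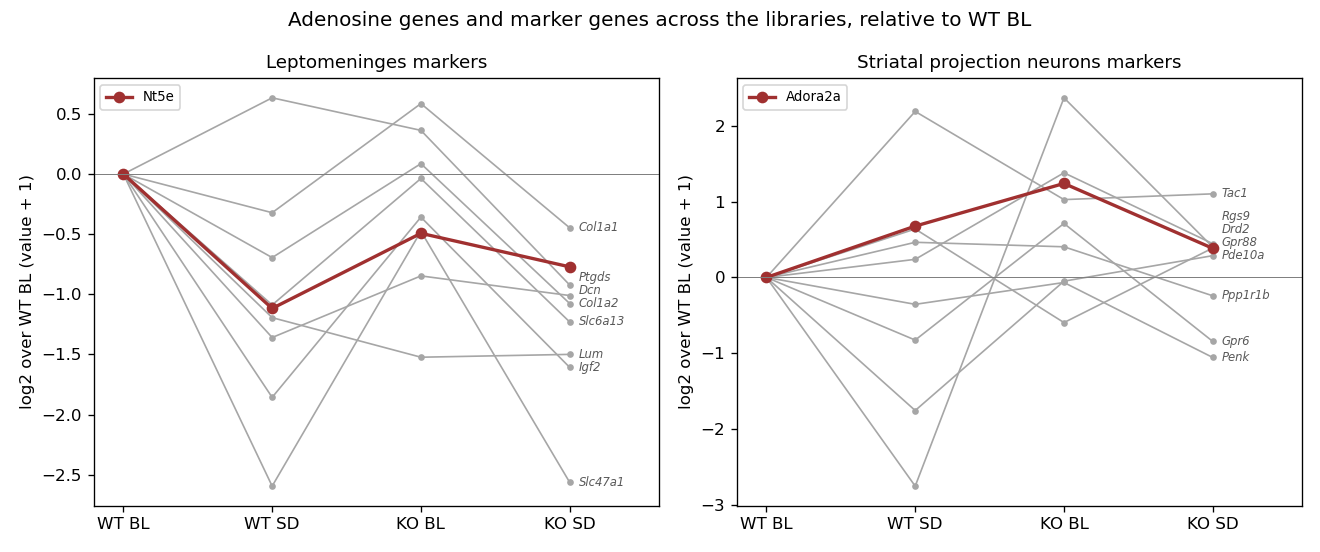
Log2 level relative to WT BL, from deposited values plus 1 (vertical axis), across the 4 libraries (horizontal axis, lines join values of 1 gene and mark no time course), for Nt5e in red with leptomeningeal markers in grey on the left and Adora2a in red with striatal markers in grey on the right. Nt5e lies at -1.12 in WT SD, where 6 of the 8 leptomeningeal markers are also at least 1.5-fold lower, and Adora2a peaks in KO BL (1.24) with Drd2, Gpr6 and Rgs9.

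Adk was read beside 9 astrocyte markers, of which 6 were higher and none lower in KO SD than in KO BL (median 0.75). Among all genes, 16.2% were higher and 16.4% lower there. The summed markers were 243923, 234269, 193808 and 336097 in WT BL, WT SD, KO BL and KO SD, most of it Slc1a2 and Glul. Like Adk, the sum was lowest in KO BL and highest in KO SD, as were 4 of the 9 markers (Slc1a2, Glul, Gja1 and Aqp4), while Sox9, Aldh1l1, S100b and Gfap were highest in WT SD. After the correction Adk differed by 0.08 for KO SD over KO BL. With corrected values 3 of the 9 markers were higher, against 7.79% of all genes. The part of astrocytes was not tested. Entpd1 was read beside 9 microglial markers. In WT SD 5 of them were higher than in WT BL and none lower (median 0.66), where Entpd1 was at -0.49. Among all genes, 24.5% were higher and 24.1% lower in that comparison. The sums of the microglial markers were 17175, 24028, 18146 and 18926. Endothelial markers, read beside Slc29a1, summed to 8154, 8819, 8083 and 8821 in WT BL, WT SD, KO BL and KO SD. The sum in KO BL, where Slc29a1 was highest, was thus close to that in WT BL. Of the 8 markers 1 was higher and 1 lower in KO BL than in WT BL, against 16.4% and 10.7% of all genes. The part of endothelium in the Slc29a1 values was not tested. Markers of choroid plexus and ependyma, read beside Slc29a4, summed to 255, 166, 323 and 778, with the highest sum in KO SD, where Ttr was at 581 against 65.0 in KO BL and Slc29a4 was lower than in KO BL. Markers of oligodendrocytes, which none of the 10 genes is set beside, summed to 35376 in WT BL and to between 61633 and 69161 in the other libraries.

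The genes whose pattern was most like that of a receptor were taken from all protein-coding genes compared, by the Euclidean distance of log2 values centred over the 4 libraries. Those nearest to Adora1 were Lrrfip1 (distance 0.03 on the log2 scale), Lpxn (0.04) and Sox17 (0.05). Sox17, for example, stood at 98.7, 154, 108 and 118 normalised counts in WT BL, WT SD, KO BL and KO SD. Those nearest to Adora2a were Pkdcc (0.05), Atg2a (0.09) and Sytl1 (0.09), with Pkdcc at 112, 177, 255 and 144. Within a distance of 0.2 lay 161 genes for Adora1 and 29 for Adora2a. The counting intervals of Adora2a, such as 0.07 to 1.33 for WT SD over WT BL, were wider than these distances. The order of its neighbours is therefore not resolved.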

How the data were processed

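RNA-seq of mouse cortex was deposited as 4 comparison tables with 39179 genes each. The values of the 4 pooled libraries did not differ between tables in the columns compared. The KO BL column of the WT BL against KO BL table, where a cell had turned into a date, was neither used nor compared. The deposited expression signal is, as far as its values show, an estimated count that the authors scaled with a single factor for every library. The submitters' processing notes name RSEM 1.2.19, edgeR and the mouse build mm10 (GRCm38); the aligner and the role of each tool are not stated there. The log2 ratios in the authors' deposited tables, and their adjusted p-values, come from single libraries and are quoted as theirs. The GC fraction and transcript width of each gene are as deposited by the authors.

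The members and gene lists were chosen with earlier results of these data known. Differences are log2 of the value plus 1, for the 13550 genes with a mean of at least 50 over the 4 libraries, counted as higher or lower from 1.5-fold. Each library is in 2 of the 4 comparisons, so comparisons that share a library are not independent. The value of 1 read was taken from the lowest steps of each library, and gave whole reads, within 0.02, for 59.4% to 70.6% of values under 100, so no count test was run. Reads so estimated gave exact Poisson intervals for levels and exact conditional binomial intervals for differences. The correction is a loess fit in R 4.3.3 (span 0.3, degree 2, symmetric family), taken of a library's deviation from the 4-library mean against GC content and log10 width, tested on simulated data; corrected values carry no interval. Sleep deprivation over both genotypes was also fitted with limma 3.58.1 (trend variance, genotype as a term) on the log2 values, an alternative added after the values were seen and tested on simulated data. With 1 residual degree of freedom it treats any difference of response between genotypes as error. The weight of the variance trend (prior degrees of freedom) was infinite with deposited values. A gene's own difference of response therefore did not enter its p-value in limma there. With corrected values that weight was 6.28.

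All 10 members are named. Of each other list the 2 largest and 2 smallest differences past 1.5-fold are named, and the 3 protein-coding genes nearest to Adora1 and to Adora2a. Exon sharing is from GENCODE M21 and promoters from RefSeq. Python 3.11.15, pandas 2.3.3, numpy 2.4.6, scipy 1.17.1 and matplotlib 3.10.9 were used.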

Additional observations from a re-analysis of the deposited data

Results flagged for a closer look

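For 6 of the 10 members the deposited values moved in opposite directions with sleep deprivation in the wildtype and in the knockout pair, which share no library. The same sign in both pairs was found for 48.1% of all genes compared, so that opposite signs were common. With 1 library a group, none of these differences between genotypes was tested. The knockout response minus the wildtype response, on the log2 scale, was -1.53 for Adora2a, -1.17 for Entpd2, -1.13 for Slc29a4, 0.36 for Adora2b, 0.58 for Adk and 0.88 for Entpd1. A difference of at least 1 in size was found for 35.9% of all genes compared, and among the members for Adora2a, Entpd2 and Slc29a4. For Adora2b and Adk, the counting interval of the wildtype response included 0. After the correction for GC content and length the signs were opposite for Adora2a (-0.70) and Entpd1 (0.99) only. With corrected values 61.8% of all genes had the same sign and 13.8% differed by at least 1.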

How the results depend on the processing

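Within a comparison no paired analysis was possible and no library could be left out, because each group was 1 library. The additive model over both genotypes called no member. The counts of members past 1.5-fold were 5 for WT SD over WT BL, 3 for KO SD over KO BL, 5 for KO BL over WT BL and 0 for KO SD over WT SD. With the GC and length correction they were 4, 1, 1 and 4; from 2-fold they were 1, 1, 1 and 0. With a minimum mean of 200, which left 6 members, the first was 2 and the third 3. All genes were not counted at 2-fold or at that mean, so these member counts have no share beside them. Scaling to each library's total, and scaling to the total without mitochondrial genes, each gave 1 member for KO SD over WT SD (Entpd1), and moved Adora1 in WT SD over WT BL from 0.64 to 0.47, under the threshold. Either scaling moved the median of all genes in WT SD over WT BL from -0.04 to -0.20, and the second moved that in KO SD over WT SD from 0.02 to 0.19. Of the 13 calls, 11 were kept under either scaling, 13 with TMM factors, 13 with a pseudocount of 0.5 or 5, and 3 under the correction, which kept the sign of 12 and added 7. The exception in sign was Slc29a4 in KO BL over WT BL (-0.079 in place of 0.64). The cause was not tested. Depth limits Adora2a most, at 36 to 79 reads a library. Differences between animals or library preparations cannot be told apart from those between conditions.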
